A study of Mus musculus with 2 samples.

Results

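Expression of 35 listed enzyme genes of glycolysis, of the pyruvate dehydrogenase step that follows it and of the pentose phosphate pathway was examined in CD4 T cells lacking Taf7, which belongs to the proteins that make up TFIID, the factor that starts transcription at promoters. The genes were listed by the reaction they take part in and were read through transcript clusters, the gene-level features of the array, that carry 1 gene symbol. Where a gene had several such clusters, the one of highest mean was used. Of the 35 genes, 30 were measured this way, among 19938 genes in all. The knockout sample came from mice with a floxed and a null Taf7 allele and the 8EIII-cre transgene, and the heterozygous sample from mice with the same floxed and null alleles but without Cre. The strain background was a mix of C57/BL6 and 129 in both. The cells were spleen CD4 T cells, sorted by their high TCRbeta and CD4 and enriched in naive cells, which carry little CD44, a marker of activated and memory cells. Each genotype had 1 array, so no value has a replicate error and no difference was tested. The sources used here do not give age, sex, the number of animals or the element that drives the Cre.

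Glycolysis splits glucose into pyruvate in the cytosol and yields ATP and NADH. Its flow is set mainly by hexokinase, phosphofructokinase and pyruvate kinase. Pyruvate is then either reduced to lactate by lactate dehydrogenase or carried into mitochondria, where the pyruvate dehydrogenase complex turns it into acetyl-CoA. Pyruvate dehydrogenase kinases switch that complex off and pyruvate dehydrogenase phosphatases switch it on. The pentose phosphate pathway branches off after the hexokinase step and gives NADPH and ribose phosphate for nucleotides. Resting naive T cells rely largely on mitochondrial respiration, and activated T cells raise glycolysis strongly, with the transcription factors Myc and HIF among the known inducers.

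The promoters of 7 of the enzymes are shown because they belong to the genes with the most extreme differences and to families whose members are compared: the kinases Pdk1, Pdk2 and Pdk3, the enzymes Pfkfb4 and Eno3 at both ends of the range, and the lactate dehydrogenase pair. Each run reads 5′ to 3′ on the strand of the gene, from 250 bases before to 50 bases after the transcription start in the RefSeq annotation of build GRCm38.p6. For genes with several annotated starts the most upstream one is given. Capitals mark ACGTG and GCGTG, the core letters of hypoxia response elements, and TATAAA, the TATA box, on either strand; none of the 7 windows held TATAAA. On the opposite strand ACGTG reads CACGT and GCGTG reads CACGC.
Pdk1, chr2:71872974-71873273, plus strand: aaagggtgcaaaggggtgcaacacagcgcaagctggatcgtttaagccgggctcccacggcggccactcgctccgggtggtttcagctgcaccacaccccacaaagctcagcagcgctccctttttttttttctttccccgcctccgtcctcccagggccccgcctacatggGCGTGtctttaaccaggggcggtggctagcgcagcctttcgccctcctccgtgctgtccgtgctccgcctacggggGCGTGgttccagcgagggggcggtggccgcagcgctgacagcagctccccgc
Pdk2, chr11:95041322-95041621, minus strand: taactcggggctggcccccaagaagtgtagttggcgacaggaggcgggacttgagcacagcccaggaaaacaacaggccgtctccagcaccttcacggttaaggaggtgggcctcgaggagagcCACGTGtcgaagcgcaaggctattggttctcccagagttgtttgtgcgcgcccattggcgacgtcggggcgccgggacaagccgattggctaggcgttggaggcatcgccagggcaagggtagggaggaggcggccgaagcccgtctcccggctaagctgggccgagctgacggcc
Pdk3, chrX:93832101-93832400, minus strand: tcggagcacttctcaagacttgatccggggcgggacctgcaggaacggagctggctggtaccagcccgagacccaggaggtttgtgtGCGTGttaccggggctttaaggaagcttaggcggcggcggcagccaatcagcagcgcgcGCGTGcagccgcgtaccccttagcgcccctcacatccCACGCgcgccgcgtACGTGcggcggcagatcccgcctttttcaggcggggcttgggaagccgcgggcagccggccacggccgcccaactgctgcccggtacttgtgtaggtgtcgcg
Pfkfb4, chr9:108991652-108991951, plus strand: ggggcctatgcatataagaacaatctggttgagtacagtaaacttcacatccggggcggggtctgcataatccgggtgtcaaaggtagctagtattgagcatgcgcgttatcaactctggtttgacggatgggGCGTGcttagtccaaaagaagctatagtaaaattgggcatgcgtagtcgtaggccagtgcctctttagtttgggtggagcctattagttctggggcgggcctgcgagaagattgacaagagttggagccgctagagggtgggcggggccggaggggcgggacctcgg
Eno3, chr11:70656926-70657225, plus strand: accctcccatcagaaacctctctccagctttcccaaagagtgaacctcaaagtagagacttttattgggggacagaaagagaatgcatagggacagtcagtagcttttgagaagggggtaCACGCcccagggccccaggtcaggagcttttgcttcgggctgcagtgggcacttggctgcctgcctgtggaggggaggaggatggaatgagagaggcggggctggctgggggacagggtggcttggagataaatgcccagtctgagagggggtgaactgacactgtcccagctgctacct
Ldha, chr7:46845554-46845853, plus strand: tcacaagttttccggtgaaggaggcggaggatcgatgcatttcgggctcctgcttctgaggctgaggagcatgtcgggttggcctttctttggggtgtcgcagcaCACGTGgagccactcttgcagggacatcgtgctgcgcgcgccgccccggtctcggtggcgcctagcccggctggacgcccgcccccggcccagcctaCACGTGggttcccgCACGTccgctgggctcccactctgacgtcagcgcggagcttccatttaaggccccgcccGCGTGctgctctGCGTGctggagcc
Ldhb, chr6:142507908-142508207, minus strand: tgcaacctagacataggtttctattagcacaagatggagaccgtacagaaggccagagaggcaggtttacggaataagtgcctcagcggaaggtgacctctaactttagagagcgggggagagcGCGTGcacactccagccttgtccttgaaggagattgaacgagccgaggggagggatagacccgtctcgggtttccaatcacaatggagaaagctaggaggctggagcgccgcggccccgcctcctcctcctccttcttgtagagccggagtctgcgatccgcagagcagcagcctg

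All 35 genes had at least 1 promoter window in the reference table, 55 windows in all. Some windows of the same gene overlap, so the same site can count in several windows. TATAAA stood in 2 of the 55 windows, 3.64%, those of Eno2 and Pfkfb1, against 12.6% of the 21262 windows of protein-coding genes. ACGTG stood in 38.2% of the windows of these enzymes, against 20.9% of protein-coding windows, and GCGTG in 56.4%, against 38.5%. CACGTG, the E-box bound by Myc and its relatives, contains ACGTG and was found in 9.09%, against 7.84%. The upstream Ldha window held it at 2 places, and the Pdk2 window at 1. CCAAT was found in 38.2%, against 38.2%, and GGGCGG, the core of the GC box, in 52.7%, against 46.2%. All motifs were counted on both strands, and the median GC content was 60% in the windows of the enzymes and 56.3% in those of protein-coding genes. The letters describe these windows only. In the printed promoters the genes that were lower and those that were higher both held GCGTG, except for Pdk2, which held ACGTG without GCGTG.

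Taf7 itself had a log2 value of 7.79 in the knockout and 8.34 in the heterozygote, a difference of -0.55. Where its probes lie relative to the deleted part was not examined, so this value does not check the genotype. The source of the remaining signal was not tested. Genes whose mean over both arrays reached 7.71, the median of all row means, are called above the filter, and there were 10457 of them. Their median difference, knockout minus heterozygote, was -0.05, and 95% of them lay between -0.62 and 0.39. Genes below the filter had a median difference of 0.14, so the offset between the arrays depended on signal. T cell markers were high on both arrays: 8 of 9 were measured, with log2 values of 11.06 to 13.50 in the knockout and 11.56 to 13.49 in the heterozygote. Markers of B cells, myeloid cells, erythroid cells, platelets and natural killer cells lay at 4.49 to 8.37 in the knockout and at 4.58 to 8.24 in the heterozygote. The CD8 T cell marker Cd8b1 was at 10.24 in the knockout and 10.50 in the heterozygote, while Cd8a was at 7.65 and 7.63 in the same order. In such bulk samples, fewer cells of a type and less RNA per cell cannot be told apart.

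The enzymes as a set differed little between the genotypes. Of the 30 measured, 11 were higher and 19 lower in the knockout, and the median log2 difference was -0.07. Over all 19938 genes the median was 0.06 and 39.3% were lower. Of the 30, 26 were above the filter, where lower values were commoner, and 9 of these were higher and 17 lower, 65.4%, against 59.1% of all genes above the filter. Their median was -0.10, against -0.05. A 1.5-fold difference was met by 1 enzyme, Eno3, which was higher, where 0.449% of genes above the filter were at least that much higher. None of the 26 was at least 1.5-fold lower, where 3.17% of genes above the filter were. The differences of 25 of the 26 lay within the central 95% of all genes above the filter, and only Eno3 lay outside. The filter left out Hk2, Hk3, Aldoc and Eno2. Aldoc lay just outside it, with a mean of 7.69, and Pfkfb4 was the nearest inside, with a mean of 8.32.

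**Figure D1:**
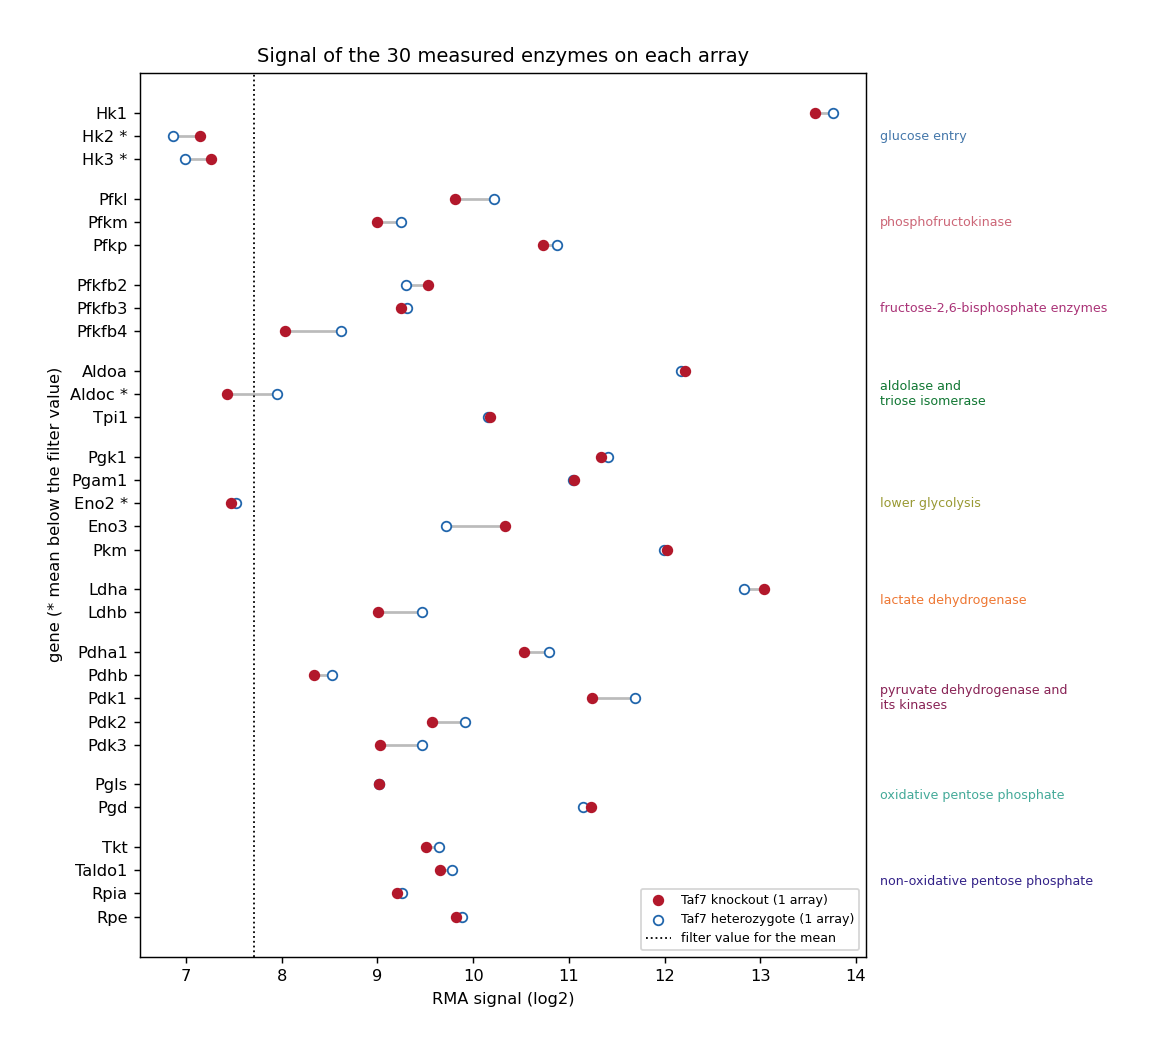
RMA signal in log2 units (horizontal) of the 30 measured enzymes (vertical, grouped by step) on the knockout array (filled red) and the heterozygous array (open blue), 1 array each. Points are single values with no error, and levels of different genes are not comparable. The dotted line is the filter value of 7.71 for the mean. The widest gaps are those of Eno3, with the knockout to the right, and of Pfkfb4 and Aldoc, with the knockout to the left.

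Glucose enters the pathway through hexokinase, and for this step the array gave an uncertain reading. Hk1, the hexokinase of most tissues, was at 13.57 in the knockout and 13.76 in the heterozygote through its cluster of highest mean, a difference of -0.18. That cluster is tied to Hk1 in the probe table by a single sequence record and lists no RefSeq transcript. The same record is listed by 16 clusters that name Hk1 together with Rpl17, a ribosomal protein gene. All 16 were lower in the knockout, by -0.35 to -0.07, where 59.1% of genes above the filter were lower. As they share the record, the 16 may not be separate measurements. The other Hk1 cluster, which lists RefSeq transcripts, was at 10.892 in the knockout and 10.999 in the heterozygote, a difference of -0.11. Both clusters gave a small negative value, and whether the brighter one measures Hk1 was not tested. Hk2, the inducible hexokinase of muscle and activated lymphocytes, was at 7.15 in the knockout and 6.87 in the heterozygote. Hk3, a hexokinase known from myeloid cells, was at 7.26 in the knockout and 6.99 in the heterozygote. Both differed by 0.28, below the filter, where the trend between the arrays alone came to 0.17. Of 9 myeloid markers, all below the filter, 6 were higher and 3 lower. Of all genes 39.3% were lower, but of those above the filter 59.1%, so the share below the filter was smaller than 39.3%. The differences of the 9 markers ran from -0.79 for Itgam to 0.31 for S100a9. The median was 0.15, against 0.14 for all genes below the filter. The part of myeloid cells in the Hk3 value was not tested. Gpi1, the isomerase that follows, had no row in the probe table used here.

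Phosphofructokinase commits the sugar to glycolysis, and all 3 of its subunit genes were lower in the knockout. Pfkl, the liver-type subunit, had a log2 value of 9.81 in the knockout and 10.21 in the heterozygote, 1.32-fold lower. Pfkm, the muscle type, was at 8.99 in the knockout and 9.25 in the heterozygote, and Pfkp, the platelet type, was at 10.73 in the knockout and 10.88 in the heterozygote. Their differences were -0.41, -0.25 and -0.15, and each stayed below 0 with every scaling of the arrays that was tried. Of all genes above the filter, 8.43% had a difference at or below that of Pfkl and 32.1% at or below that of Pfkp. Lower values were common, since 59.1% of all genes above the filter were lower.

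The bifunctional Pfkfb enzymes make and remove fructose-2,6-bisphosphate, the activator of phosphofructokinase, and their genes differed in opposite directions. Pfkfb4 was at 8.03 in the knockout and 8.61 in the heterozygote, a difference of -0.58 or 1.495-fold lower, just short of the 1.5-fold limit of 0.585 on the log2 scale. It was the lowest of the 30 enzymes, and 3.26% of genes above the filter were at or below it. Pfkfb2, the heart-type enzyme, was at 9.53 in the knockout and 9.30 in the heterozygote, higher by 0.23. Pfkfb3, the inducible form known for high kinase activity, was at 9.25 in the knockout and 9.31 in the heterozygote. Its difference of -0.06 turned to 0.04 when the trend with signal was removed and to 0.02 with quantile normalization. Pfkfb2 and Pfkfb4 thus stood 0.81 apart in their log2 differences. Pfkfb1 had no row in the probe table used here.

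Aldolase and triose phosphate isomerase split and convert the sugar phosphates, and the main forms hardly differed. Aldoa was at 12.21 in the knockout and 12.17 in the heterozygote, and Tpi1 at 10.18 in the knockout and 10.15 in the heterozygote. Aldoc, the brain-type aldolase, was at 7.43 in the knockout and 7.95 in the heterozygote, a difference of -0.52 around the filter value. Genes of that signal had a trend of 0.15 in the other direction, so that Aldoc came to -0.68 with the trend removed.

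The lower steps, which yield ATP and pyruvate, were nearly level between the genotypes except for Eno3. Pgk1, phosphoglycerate kinase, was at 11.34 in the knockout and 11.41 in the heterozygote. Pgam1, phosphoglycerate mutase, was at 11.05 on both arrays, with a difference of 0.0016 that changed sign to -0.03 when its 3 clusters were averaged. Pkm, the pyruvate kinase of T cells, was at 12.03 in the knockout and 12.00 in the heterozygote. These 3 genes carried several clusters, whose differences ran from -0.07 to -0.06 for Pgk1, from -0.04 to 0.0016 for Pgam1 and were 0.03 for both of Pkm. Pgk1 and Pgam1 each had a pair of clusters with identical values on both arrays, so their clusters are not separate measurements. The array does not tell apart the splice forms of Pkm at this level. Gapdh had no cluster of its own, and Eno1, the main enolase of most cells, had no row in the probe table used here.

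Eno3, the enolase known from muscle, was at 10.33 in the knockout and 9.72 in the heterozygote, 1.53-fold higher. Among genes above the filter, 0.335% had a difference as high or higher. Its log2 difference of 0.61 became 0.71 with the trend between the arrays removed, and it had 1 cluster. Eno2, the neuronal enolase, was at 7.47 in the knockout and 7.52 in the heterozygote, below the filter. Of the enzymes, Eno3 stood alone at the upper end, since the next highest above the filter were Pfkfb2 at 0.23 and Ldha at 0.22.

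**Figure D2:**
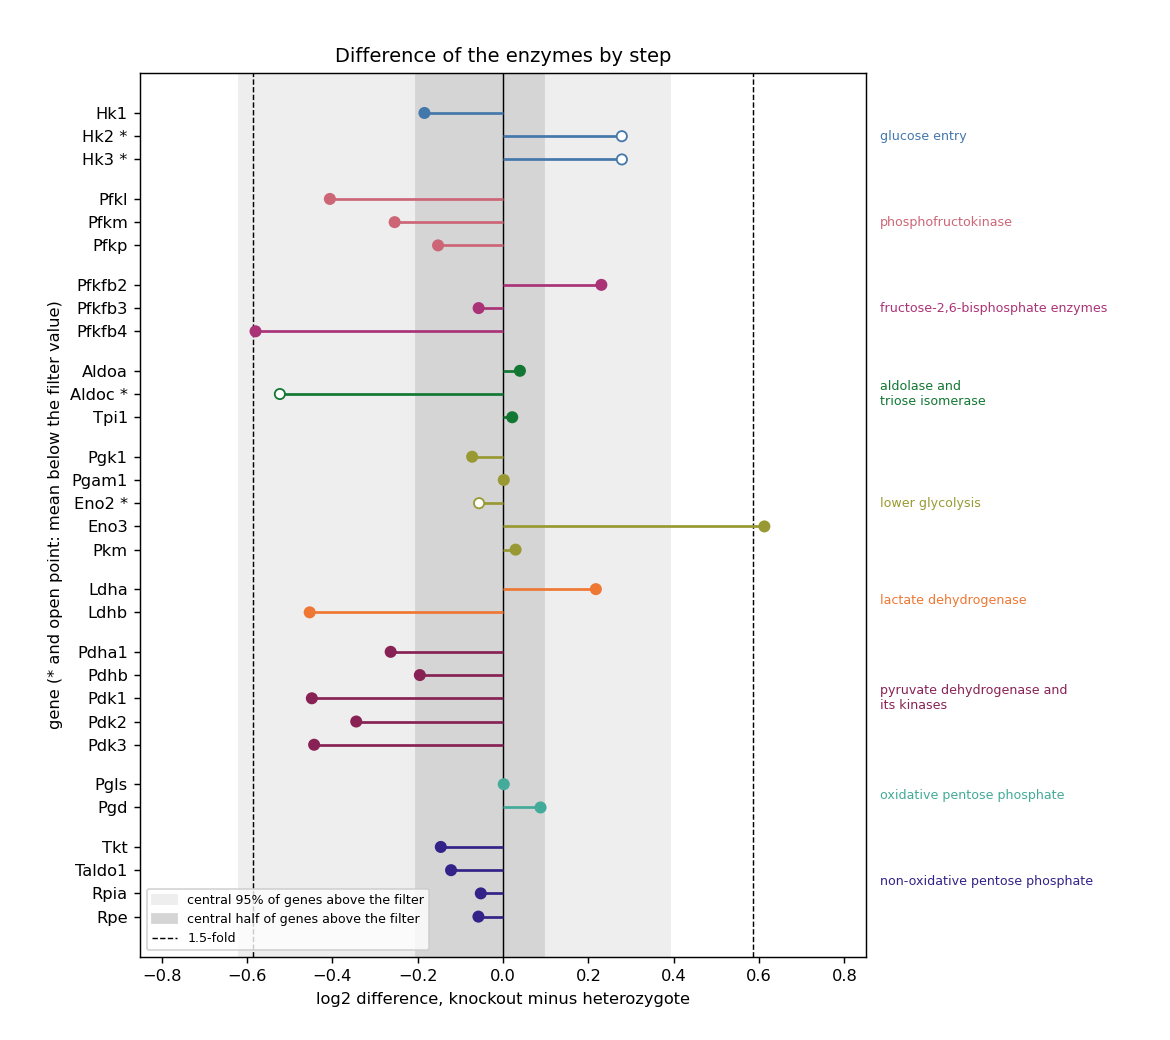
Log2 difference, knockout minus heterozygote (horizontal), of the 30 measured enzymes (vertical, grouped and coloured by step), with open points for the 4 enzymes below the filter. Light grey spans the central 95% of the genes above the filter (-0.62 to 0.39), darker grey runs from their 25th to their 75th percentile (-0.20 to 0.10), and dashed lines mark 1.5-fold. All phosphofructokinase and all pyruvate dehydrogenase points lie left of 0, and only Eno3 passes a dashed line.

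The lactate dehydrogenase genes differed in opposite directions. Ldha, whose product favours lactate formation, was at 13.04 in the knockout and 12.83 in the heterozygote, 1.16-fold higher. Ldhb, whose product favours the return of lactate to pyruvate, was at 9.01 in the knockout and 9.46 in the heterozygote, 1.37-fold lower. Their log2 differences, 0.22 and -0.45, were 0.67 apart. The second Ldhb cluster was at 8.45 in the knockout and 8.60 in the heterozygote, with a smaller difference of -0.15, and the average of both was -0.30. Ldha has processed pseudogenes with near-identical sequence, so its value may not come from Ldha alone. Both signs held with every scaling tried.

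The pyruvate dehydrogenase genes were the group with the lowest median, -0.34, and all 5 were lower in the knockout. Of all genes above the filter, 59.1% were lower and the median was -0.05. Pdk1, the kinase induced by hypoxia, was at 11.24 in the knockout and 11.69 in the heterozygote, 1.36-fold lower. Pdk3 was at 9.02 in the knockout and 9.47 in the heterozygote, also 1.36-fold lower. Pdk2, the most widely expressed of these kinases, was at 9.57 in the knockout and 9.92 in the heterozygote, 1.27-fold lower. The kinases' substrate was lower as well. Pdha1, the X-linked alpha subunit of the first enzyme of the complex, was at 10.53 in the knockout and 10.79 in the heterozygote, and Pdhb, its beta subunit, was at 8.33 in the knockout and 8.53 in the heterozygote. None of the 5 reached 1.5-fold, and single genes with differences of this size were common: 6.68% of genes above the filter were at or below Pdk1, 12.0% at or below Pdk2 and 26.1% at or below Pdhb. With the trend between the arrays removed the median of the 5 was -0.24, and each kept its sign with every scaling tried.

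The opposing phosphatases, which were not among the listed enzymes, were lower too, where 59.1% of all genes above the filter were lower. Pdp1, a catalytic subunit, was at 10.08 in the knockout and 10.50 in the heterozygote. Pdp2, the other catalytic subunit, was at 8.51 in the knockout and 8.96 in the heterozygote, and Pdpr, their regulatory subunit, was at 10.24 in the knockout and 10.51 in the heterozygote. Their log2 differences were -0.42, -0.46 and -0.27. Of the remaining parts of the complex, Dld was at -0.24 and Pdhx at -0.11, whereas Dlat, the acetyltransferase core, differed by 0.0054. Pdk4, the kinase known for induction by fasting, was at 6.45 in the knockout and 6.33 in the heterozygote, below the filter. Of the kinase genes, the 3 above the filter were lower. Pdk4 was higher by 0.11, where the median difference of genes below the filter was 0.14.

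**Figure D3:**
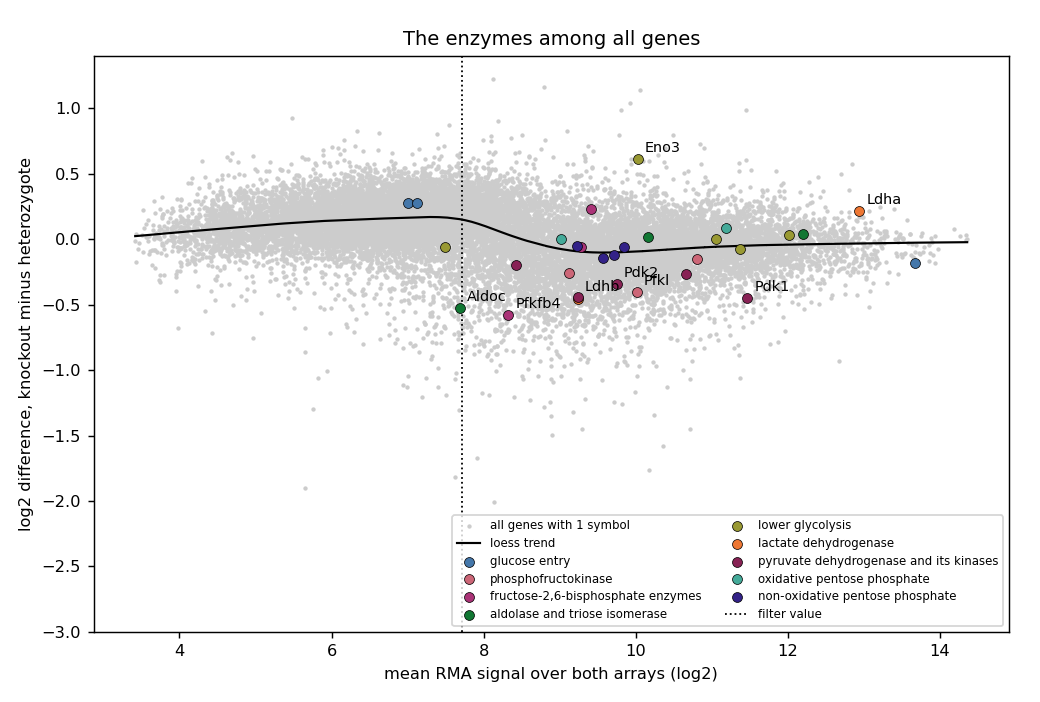
Log2 difference, knockout minus heterozygote (vertical), against mean RMA signal over both arrays in log2 units (horizontal) for all 19938 genes with 1 symbol (grey) and the 30 enzymes (coloured by step), with the loess trend as a black line and the filter value as a dotted line. The trend is above 0 at low signal and below 0 at middle signal, and Eno3 at 0.61 and Pfkfb4 at -0.58 are the enzymes farthest from it above the filter.

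The pentose phosphate enzymes differed little. In the oxidative branch, which makes NADPH, Pgd, phosphogluconate dehydrogenase, was at 11.23 in the knockout and 11.15 in the heterozygote, and Pgls, the lactonase, was at 9.02 in the knockout and 9.01 in the heterozygote. G6pdx, the first and rate-limiting enzyme of the branch, had no row in the probe table used here. In the non-oxidative branch, Tkt, transketolase, was at 9.50 in the knockout and 9.65 in the heterozygote, and Taldo1, transaldolase, at 9.66 in the knockout and 9.78 in the heterozygote. Rpia, the ribose phosphate isomerase, was at 9.21 in the knockout and 9.26 in the heterozygote, and Rpe, the epimerase, at 9.82 in the knockout and 9.88 in the heterozygote. The 6 differences ran from -0.15 to 0.09, all between the 25th and the 75th percentile of the genes above the filter. All 4 genes of the non-oxidative branch were slightly lower, but Rpia and Rpe turned to 0.04 each with the trend removed, and to 0.03 each with quantile normalization.

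The lists of genes around these enzymes were chosen with earlier results of these data known, and their counts are descriptions. Each is to be read against all genes above the filter, of which 59.1% were lower, 3.17% at least 1.5-fold lower and 0.449% at least 1.5-fold higher, with a median of -0.05. Of 8 glucose, lactate and pyruvate carriers above the filter, 3 had a positive and 5 a negative difference, around a median of -0.09. Slc2a3, the high-affinity glucose transporter of lymphocytes, was the lowest at -0.32, with 10.14 in the knockout and 10.46 in the heterozygote. Slc2a1, the main glucose transporter of activated T cells, was at 11.46 in the knockout and 11.51 in the heterozygote. Bsg, the chaperone of the lactate carriers, was the highest at 0.14, and Mpc1 of the mitochondrial pyruvate carrier was at -0.16. None of the 8 reached 1.5-fold.

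Other enzymes of the same pathways had a median of -0.14 over the 18 above the filter, of which 5 were higher and 13 lower, where 59.1% of all genes above the filter were lower. None reached 1.5-fold, where 3.17% were at least that much lower. Apart from the phosphatases the lowest was Pgm1, phosphoglucomutase, at -0.33, and the highest was Adpgk, the ADP-dependent glucokinase, at 0.22. Citric acid cycle enzymes, which take up the acetyl-CoA, had a median of -0.10, with 3 of 16 higher, 13 lower and none past 1.5-fold, against a median of -0.05 and 59.1% lower among all genes above the filter. Suclg1 and Suclg2, subunits of succinyl-CoA ligase, were the lowest at -0.36 and -0.34, and Mdh2, the mitochondrial malate dehydrogenase, was the highest at 0.08. Of 6 other NADPH producers above the filter, 1 was higher and 5 lower, with a median of -0.22. Idh1, the cytosolic isocitrate dehydrogenase, was the lowest at -0.36, and Nnt, the mitochondrial transhydrogenase, the highest at 0.19. A deletion in Nnt is known from a C57 substrain, and its part in this value was not tested.

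Regulators of glycolytic genes differed in both directions. Of 20 above the filter, 7 had a positive and 13 a negative difference, around a median of -0.10, with 1 at least 1.5-fold lower. The share that was lower, 65%, was near the 59.1% of all genes above the filter, of which 3.17% were at least 1.5-fold lower. The gene past 1.5-fold was Epas1, which encodes HIF2-alpha, at 8.81 in the knockout and 9.73 in the heterozygote, 1.89-fold lower. Hif1a was at 11.54 in the knockout and 11.76 in the heterozygote, and Myc at 11.57 in the knockout and 11.74 in the heterozygote. Of the oxygen sensors in this list, which restrain HIF, Egln1 and Hif1an were at -0.39 and -0.37 and Egln2 at 0.0067. Vhl was at -0.10. Irf4, a factor of activated T cells, was at -0.45. Mlxip, which encodes the glucose sensor MondoA, was the highest at 0.52, with 12.10 in the knockout and 11.58 in the heterozygote, and its known target Txnip, an inhibitor of glucose uptake, was at 0.21.

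Among HIF targets outside glycolysis, 9 were above the filter, 4 with a positive and 5 with a negative difference, around a median of -0.0046. Of all genes above the filter, 59.1% were lower and 0.449% at least 1.5-fold higher. Ndrg1, a stress-response gene, was 1.73-fold higher, with 10.88 in the knockout and 10.09 in the heterozygote, and Ddit4, an inhibitor of the mTOR kinase, was at 0.43. Bnip3, a mitophagy receptor, was at -0.43, and Kdm3a, a histone demethylase, at -0.03.

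Markers of activation differed between the samples beside the enzymes. Of 9 activation and proliferation genes above the filter, 5 had a positive and 4 a negative difference, around a median of 0.14, with 2 at least 1.5-fold lower, where 3.17% of all genes above the filter were that much lower and 59.1% were lower. Those were Cd44, which was also used to enrich the cells, at 8.21 in the knockout and 9.56 in the heterozygote, and Il2ra, a receptor chain of activated and regulatory T cells, at 10.87 in the knockout and 11.70 in the heterozygote. Cd69, an early activation marker, was at 12.50 in the knockout and 12.06 in the heterozygote. Ccnb2, Top2a and Rrm2, genes of proliferation, were at 0.31, 0.26 and 0.20, with signals near the filter value. For genes of such signal the trend between the arrays alone came to 0.12 to 0.14. Tfrc was at 0.14. The amino acid carrier genes Slc7a5 and Slc3a2, which are induced with activation, were at -0.16 and -0.21. The part of these differences in those of the enzymes was not tested.

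**Figure D4:**
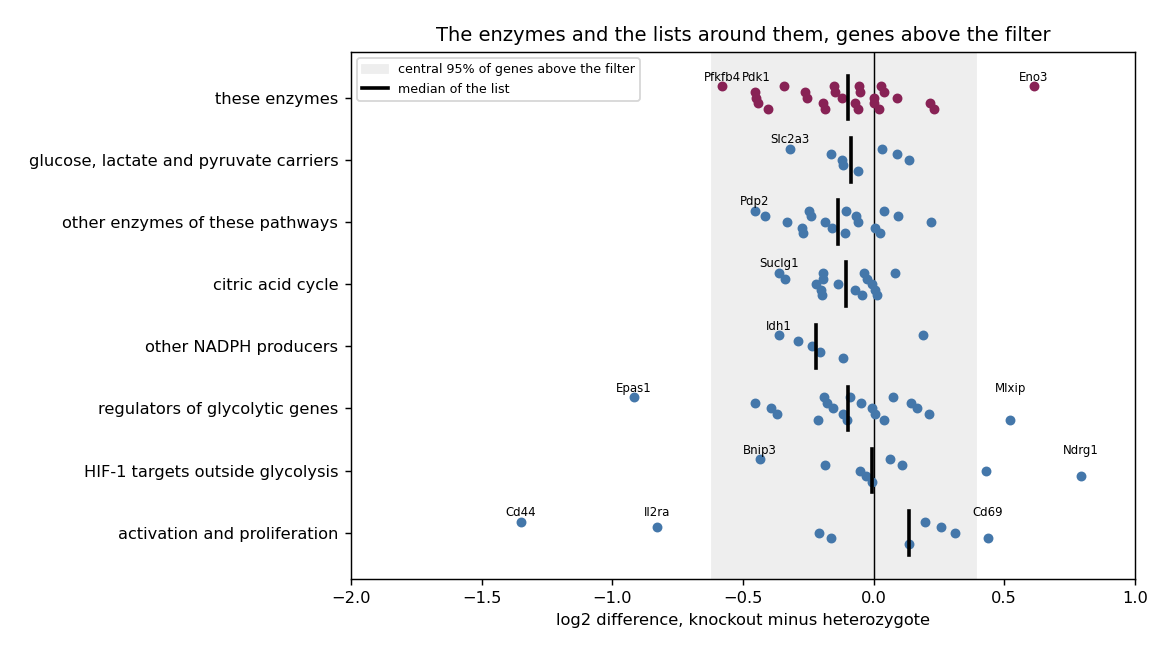
Log2 difference, knockout minus heterozygote (horizontal), of single genes above the filter (points) in the enzymes and in 7 lists around them (rows), with the median of each list as a black bar and the central 95% of all genes above the filter in grey. Medians run from -0.22 for other NADPH producers to 0.14 for activation and proliferation genes, and the points outside the grey range include Eno3, Epas1, Mlxip, Ndrg1, Cd44 and Il2ra.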

How the data were processed

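Total RNA of sorted spleen CD4 T cells was run on Affymetrix arrays, 1 for each genotype. The deposited log2 values are signals per gene that the authors made with RMA in Affymetrix Expression Console 1.1 for the core gene set, per the series design text and the submitters' processing notes. The design text names an exon array, while the probe table used here fits identifiers of a gene-level whole transcript array. Arrays have no read depth, and precision is limited by their number.

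Of 35556 rows, 21789 had 1 gene symbol, 1621 several and 12146 none. The heterozygous log2 value was subtracted from that of the knockout without renormalizing, and genes were counted at 1.5-fold. The members and lists were chosen with earlier results of these data known. All members were named, and of other lists up to 3 genes at each end above the filter and those the members turn on. Of the activation and proliferation genes, all above the filter were named. Also tried were centring, quantile normalization, removal of a loess trend (span 0.3), the filter at the 25th or 75th percentile or none, averaged clusters, members with 1 cluster, and leaving out Gapdh and Ldha. The use of clusters with a curated RefSeq transcript was added after seeing the data. The procedure was tested on simulated data. The planted differences were larger than that of any enzyme and had no trend with signal, so the simulation does not cover differences of the size seen here. Isozyme protein sequences were not analysed here. Promoter motifs were searched in RefSeq windows of GRCm38.p6. The loess fit was from statsmodels 0.14.6 and figures from matplotlib 3.10.9, with pandas 2.3.3, numpy 2.4.6 and Python 3.11.15.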

Additional observations from a re-analysis of the deposited data

Results flagged for a closer look

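Gapdh, the enzyme between the isomerase and Pgk1, had no cluster of its own, and 25 clusters listed it together with predicted genes of several other symbols. These clusters entered no comparison. All 25 were higher in the knockout, with a median log2 difference of 0.10 and a range of 0.06 to 0.12, and log2 values of 13.45 to 13.95 in the knockout and 13.35 to 13.83 in the heterozygote. They gave 20 distinct pairs of values, so some are not separate measurements, and the signal cannot be assigned to Gapdh. The 16 clusters that list Hk1 with Rpl17 were lower in all 16 cases, with a median of -0.21. All 16 list the same sequence record, so they may not be separate measurements either. Of the 10457 genes above the filter, 4280 were higher and 6177 lower.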

How the results depend on the processing

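No paired analysis was possible because the genotypes had 1 array apiece. For the same reason none could be left out. The median of the 30 enzymes lay between -0.07 and -0.02 under all alternatives, and between 16 and 20 of the measured enzymes were lower, with fewer measured where only genes with 1 cluster were kept. Eno3 remained the 1 enzyme at least 1.5-fold higher in every setting. The count of enzymes above the filter and at least 1.5-fold lower was 1 with the loess trend removed and 1 with quantile normalization, against 0, and this enzyme was Pfkfb4, at -0.62 and -0.59. Aldoc, below the filter and not counted, was at -0.68 and -0.60 under the same settings. With quantile normalization 48.2% of genes above the filter were lower, and with the loess trend removed 50.8%, against 59.1%; centring makes the shares equal by construction. With the loess trend removed the hexokinase median was 0.11, against 0.28, because the trend was positive at low signal, and the pyruvate dehydrogenase median was -0.24, against -0.34. Where only genes with 1 cluster were kept, the lactate dehydrogenase median reversed to 0.22, since Ldha alone was left, and that of the lower steps was 0.28, since Eno2 and Eno3 alone were left. Without Gapdh and Ldha the lactate dehydrogenase median was -0.45, since Ldhb alone was left. The other 123 summary values moved by less than 0.1 or, for counts, by less than 1.5 times. Some medians near 0 changed sign among them. With the loess trend removed, that of the Pfkfb genes went from -0.06 to 0.04 and that of the non-oxidative pentose phosphate genes from -0.09 to 0.01. Both were also positive with quantile normalization. With clusters averaged, that of the lower steps went from 0.0016 to -0.03. All 294 values of single enzymes under alternatives moved by less than 0.22, the robust SD of the differences of genes above the filter. Changing the filter or leaving out genes kept every difference the same, so those values could not move. Averaging clusters and choosing RefSeq clusters could move only genes with several clusters, and centring moved every gene by the same amount. The sign was kept throughout for 26 enzymes, and Pfkfb3, Pgam1, Rpia and Rpe changed it. Values at the low end of the signal range, those of Hk2, Hk3, Eno2 and Aldoc, are limited by background.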
